A study of Mus musculus with 8 samples.

Results

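Genes that copy DNA and genes that divide the cell were followed in spleen RNA of 8 mice, 4 lacking miR-155 and 4 wild type. The list held 34 genes by name, and features carrying these names were found for 33, out of 24171 genes named on the array (Cdk1 stands there as Cdc2a and Cdc45 as Cdc45l). No feature named Plk1 was used here. Of the 33 genes, 15 belong to DNA replication (6 Mcm subunits, Pcna, Cdc6, Cdc45, Rrm2, Tyms, Tk1, E2f1, Ccne1 and Ccne2) and 18 to mitosis. The genes were taken by name alone, and where a gene had several features the one with the highest mean over the 8 arrays was used.

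The knockout animals are named Mim1-5, Mim1-6, Mim2-2 and Mim2-3, of which the first pair is labelled female and the second male. The wild-type animals WT-1 and WT-3 are labelled female, WT-2 and WT-4 male. The labels do not say what Mim1 and Mim2 mean, and in the knockout the name prefix and the labelled sex cannot be told apart. Strain, age and the extent of the deletion are not given in the sources used here. The series describes 1 spleen per animal, hybridised to 1 single-colour NimbleGen array each, and all values below are log2 intensities after RMA, which removes background, puts the arrays on a common scale and pools the probes behind each feature. The guide strand that the knockout is meant to lack is printed here from RefSeq (GRCm38.p6, chr16:84714143-84714165, plus strand), with its seed, bases 2 to 8, in capitals.
mmu-miR-155-5p: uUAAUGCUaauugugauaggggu

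The 8 arrays were alike in brightness, with median intensities of 112.1 to 119.1 on the linear scale, but not in content. Over 44170 features the Pearson correlation among the Mim1 and wild-type arrays was 0.911 to 0.943, and that of the Mim2 arrays with those 6 was 0.811 to 0.877. Markers of another tissue stood high on arrays labelled spleen: the mean of 15 mammary epithelium markers was 11.00 to 11.37 on the wild-type arrays, 10.54 and 10.55 on the Mim1 arrays, and 7.67 and 8.95 on the Mim2 arrays. The mean of 9 B cell markers was 8.27 to 8.79 on the wild-type arrays, 9.68 and 9.35 on Mim1 and 10.30 and 10.08 on Mim2. The mean of 7 adipocyte markers was 7.38 to 7.59 on the wild-type arrays, 7.32 and 7.24 on Mim1 and 10.99 and 10.30 on Mim2. The labelled sexes were not separated by the Y-linked gene Ddx3y, whose mean was 7.82 over arrays labelled female and 7.76 over those labelled male. Its mean was 8.66 over the knockout and 6.91 over the wild-type arrays, and that of the X inactivation transcript Xist was 9.52 and 10.56. The feature for BIC, the host transcript of miR-155, was higher by 0.76 in the knockout, at 5.91 against 5.15 (limma, adjusted p = 0.521), with its highest value, 7.51, on the knockout array Mim1-5. Where its probes lie relative to the deletion is not known, and it cannot serve as a check of the genotype. For these reasons each comparison of the knockout with the wild type is given with all 4 knockout arrays and for the Mim1 and Mim2 arrays apart. Values on single arrays are listed in the order Mim1-5 and Mim1-6, Mim2-2 and Mim2-3, and WT-1 to WT-4.

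Before a cell divides it licenses its replication origins by loading the ring-shaped Mcm2 to Mcm7 helicase with the help of Cdc6, fires them with Cdc45 and cyclin E, and copies DNA with polymerases held by the Pcna clamp while Rrm2, Tyms and Tk1 supply nucleotides. E2F factors switch these genes on as the cell leaves its resting state. Later a second wave of genes, driven by Foxm1 and related factors, builds the mitotic machinery of cyclins A and B with Cdk1, Aurora kinases, the spindle checkpoint and the spindle motors. In the mouse spleen dividing cells include germinal centre B cells and, in the red pulp, red cell precursors. In whole tissue, fewer dividing cells and less RNA per cell cannot be told apart.

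Most genes of both waves had lower means in the knockout, and none of the differences passed the test. Of the 33 genes, 30 had a lower and 3 a higher knockout mean, with a median difference of -0.56. Over all 44170 features 47.8% were lower and the median was 0.03. In limma with labelled sex as an additive term, 0 of the 33 genes and 0 of 44170 features (0.0%) passed an adjusted p of 0.05. At an unadjusted p under 0.05 there were 2 members, Kif20a and Ccnb2, both lower, beside 6.88% of all features that were lower at that level and 6122 features in either direction. The spread among the knockout arrays was the larger one: the standard deviation was larger in the knockout than in the wild type for 31 of 33 genes, beside 64.8% of all features, and the median range over 4 arrays was 1.83 for the knockout against 0.84 for the wild type.

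**Figure D1:**
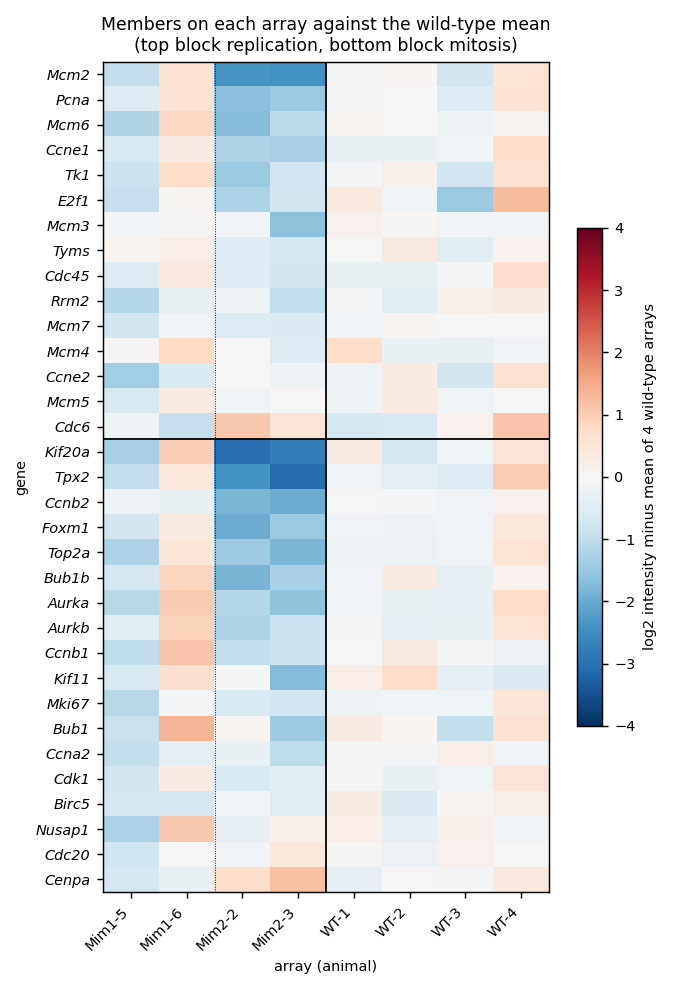
Log2 intensity of each of 33 genes (rows, replication above and mitosis below the line) on each of 8 arrays (columns), minus the mean of the 4 wild-type arrays; blue is lower and red is higher. Mim1-5, Mim2-2 and Mim2-3 are mostly blue, with 31, 29 and 28 genes under the wild-type mean, and Mim1-6 is mostly red, with 23 above it.

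The knockout arrays did not share 1 level for these genes. On Mim1-5, 31 of 33 genes lay under the wild-type mean, with a median of -0.74, and 28 lay under all 4 wild-type arrays, beside 19.6% of all features. On Mim1-6, which carries the same genotype, sex label and name prefix, 23 of 33 lay above the wild-type mean, with a median of 0.37, and 13 lay above all 4 wild-type arrays, beside 21.5% of all features. Mim2-2 had 21 genes and Mim2-3 had 24 under all wild-type arrays, beside 27.8% and 29.1% of all features. Between the Mim1 animals 30 of 33 genes were lower in Mim1-5, with a median difference of -1.03, while over all features 47.1% were lower and the median was 0.05. Between the Mim2 animals the genes had no common order, with 14 of 33 lower in Mim2-2. Among the wild-type arrays WT-4 was highest for 21 of 33 genes.

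Among replication genes the knockout difference was widest for Mcm2, a subunit of the helicase that unwinds DNA at the fork. Mcm2 read 7.88 and 9.46 on the Mim1 arrays, 6.48 and 6.41 on the Mim2 arrays, and 8.90, 8.93, 8.11 and 9.39 on the wild-type arrays. Mim1-5 and both Mim2 arrays lay under every wild-type array, while Mim1-6 was the highest of all 8. Its means were 7.55 ± 1.44 (SD, n = 4) over the knockout arrays and 8.84 ± 0.53 (SD, n = 4) over the wild-type ones, a difference of -1.28 ± 0.62 (SE) that did not pass (limma, adjusted p = 0.391). Mcm6, another subunit of the ring, read 8.65 and 10.67 on the Mim1 arrays, 8.11 and 8.77 on the Mim2 arrays, and 9.92, 9.86, 9.66 and 9.97 on the wild-type arrays. Its wild-type arrays lay within 0.31 of each other and its knockout arrays on both sides of them, with a difference of -0.80 ± 0.49 (SE) and an adjusted p of 0.485 in limma. Of the 6 Mcm subunits 5 had a lower knockout mean, with a median of -0.48: Mcm3 differed by -0.47, Mcm7 by -0.50, Mcm5 by -0.10 and Mcm4 by 0.07. Mcm5 read 9.22 and 10.22 on the Mim1 arrays, 9.71 and 9.87 on the Mim2 arrays, and 9.64, 10.20, 9.70 and 9.87 on the wild-type arrays, and Mcm4 read 9.44 and 10.20 on the Mim1 arrays, 9.36 and 8.85 on the Mim2 arrays, and 10.09, 9.11, 9.09 and 9.27 on the wild-type arrays. These 2 had the smallest differences of the replication genes, and their groups overlapped.

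Pcna, the sliding clamp that holds the polymerase on DNA, read 12.61 and 13.76 on the Mim1 arrays, 11.49 and 11.70 on the Mim2 arrays, and 13.13, 13.15, 12.65 and 13.75 on the wild-type arrays. Each knockout array except Mim1-6 lay under all wild-type arrays, and Mim1-6 was level with WT-4. The means were 12.39 ± 1.04 (SD, n = 4) over the knockout arrays and 13.17 ± 0.45 (SD, n = 4) over the wild-type ones, a difference of -0.78 ± 0.49 (SE) (limma, adjusted p = 0.498). Rrm2, the small subunit of the reductase that makes deoxynucleotides, read 8.30 and 9.14 on the Mim1 arrays, 9.25 and 8.46 on the Mim2 arrays, and 9.38, 9.01, 9.64 and 9.76 on the wild-type arrays. Only Mim1-5 and Mim2-3 lay under every wild-type array, and the difference was -0.66 ± 0.34 (SE). The other nucleotide enzymes, the thymidine kinase Tk1 and the thymidylate synthase Tyms, differed by -0.59 and -0.22.

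E2f1, a transcription factor that turns on replication genes, read 7.19 and 8.19 on the Mim1 arrays, 6.87 and 7.40 on the Mim2 arrays, and 8.50, 7.95, 6.63 and 9.40 on the wild-type arrays. The wild-type arrays alone spread over 2.77, wider than the difference of -0.71 ± 0.57 (SE). Ccne1, a cyclin that drives entry into S phase, read 7.23 and 8.15 on the Mim1 arrays, 6.66 and 6.55 on the Mim2 arrays, and 7.59, 7.58, 7.71 and 8.55 on the wild-type arrays, with each knockout array except Mim1-6 under all wild-type arrays and a difference of -0.71 ± 0.42 (SE). Its relative Ccne2 differed by -0.56, and the origin factor Cdc45 by -0.35. Cdc6, which loads the helicase, had a mean higher by 0.12 in the knockout and lay under the random probes on Mim1-6. None of these differences passed (limma, adjusted p of 0.438 to 0.928).

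To show the DNA in front of replication genes that differ in the data, the 250 bases upstream of 3 of them are printed from RefSeq (GRCm38.p6, each in the direction of its gene): Mcm2 and Pcna, whose Mim2 values were lowest against the wild type, and Mcm6, for its E2F words. Capitals mark the E2F words TTTCGCGC, TTTGGCGC, TTTCCCGC and TTTGCCGC, the CHR words TTTGAA and TTTAAA, known from mitotic promoters, and CCAAT, the word of the factor NF-Y, all searched on both strands.
Mcm2, chr6:88898781-88899030 (-): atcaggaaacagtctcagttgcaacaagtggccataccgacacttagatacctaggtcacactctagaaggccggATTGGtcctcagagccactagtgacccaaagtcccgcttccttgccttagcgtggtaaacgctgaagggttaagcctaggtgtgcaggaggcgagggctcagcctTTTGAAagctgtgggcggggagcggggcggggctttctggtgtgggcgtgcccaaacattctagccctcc
Pcna, chr2:132253181-132253430 (-): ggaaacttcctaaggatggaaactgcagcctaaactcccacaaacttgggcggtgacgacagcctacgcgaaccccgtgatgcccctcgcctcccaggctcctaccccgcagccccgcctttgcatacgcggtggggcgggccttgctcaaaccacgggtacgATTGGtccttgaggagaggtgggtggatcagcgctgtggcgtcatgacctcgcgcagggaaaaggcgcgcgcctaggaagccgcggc
Mcm6, chr1:128359706-128359955 (-): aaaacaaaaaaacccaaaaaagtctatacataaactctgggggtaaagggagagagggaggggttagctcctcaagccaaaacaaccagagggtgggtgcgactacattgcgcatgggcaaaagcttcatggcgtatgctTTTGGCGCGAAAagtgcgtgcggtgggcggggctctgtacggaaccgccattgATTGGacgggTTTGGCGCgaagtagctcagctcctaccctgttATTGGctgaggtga
In Mcm6 3 E2F words were found, at 110, 106 and 47 bases before the start, of which the first and second overlap. Mcm2 and Pcna held none of the E2F words, and Mcm2 held a CHR word 70 bases before its start.

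Mitosis genes held the widest differences of the list. Kif20a, a kinesin that works at the central spindle, read 8.09 and 10.45 on the Mim1 arrays, 6.37 and 6.68 on the Mim2 arrays, and 9.79, 8.73, 9.25 and 9.94 on the wild-type arrays. Mim1-5 and the Mim2 arrays lay below every wild-type array, and Mim1-6 above all of them. The means were 7.90 ± 1.86 (SD, n = 4) over the knockout arrays and 9.43 ± 0.55 (SD, n = 4) over the wild-type ones, a difference of -1.53 ± 0.67 (SE) that did not pass (limma, adjusted p = 0.356). Tpx2, which nucleates spindle microtubules and activates Aurora A, read 9.08 and 10.52 on the Mim1 arrays, 7.67 and 6.97 on the Mim2 arrays, and 9.96, 9.66, 9.53 and 11.09 on the wild-type arrays. Its Mim2 values were again the lowest, and the difference was -1.50 ± 0.68 (SE) (limma, adjusted p = 0.367). The motor Kif11, which pushes spindle poles apart, differed by -0.45 and lay under the random probes on Mim2-3. Nusap1, a microtubule-binding protein of the spindle, read 6.78 and 9.11 on the Mim1 arrays, 7.71 and 8.23 on the Mim2 arrays, and 8.30, 7.67, 8.25 and 7.94 on the wild-type arrays, with a difference of -0.08 that was the smallest of the mitosis genes.

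Among the cyclins Ccnb2 and Ccna2 were the members whose 4 knockout arrays all lay under all 4 wild-type arrays, beside 2.64% of all features that were lower without overlap. Ccnb2, a B-type cyclin and partner of Cdk1, read 6.37 and 6.33 on the Mim1 arrays, 4.80 and 4.62 on the Mim2 arrays, and 6.63, 6.56, 6.49 and 6.80 on the wild-type arrays. The wild-type and Mim1 arrays lay within 0.47 of each other, and both Mim2 values were under the random probes of their arrays, so they are upper bounds. The difference was -1.09 ± 0.39 (SE) (limma, adjusted p = 0.306). Ccna2, the cyclin of S phase and early mitosis, read 8.40 and 8.97 on the Mim1 arrays, 9.09 and 8.32 on the Mim2 arrays, and 9.26, 9.31, 9.62 and 9.22 on the wild-type arrays. Here Mim1-5 and Mim2-3 were lowest, and the difference of -0.66 ± 0.30 (SE) was nearly the same in Mim1 (-0.67) and Mim2 (-0.65) against the wild type, with an adjusted p of 0.374 in limma. Ccnb1 differed by -0.43 and Cdk1, the kinase these cyclins activate, by -0.37. Cdc20, which turns on the destruction of cyclin B, read 8.63 and 9.43 on the Mim1 arrays, 9.30 and 9.86 on the Mim2 arrays, and 9.49, 9.20, 9.61 and 9.45 on the wild-type arrays. Its difference of -0.13 was within the spread of the arrays.

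Of the kinases and checkpoint genes, Bub1b, a checkpoint protein that holds back Cdc20, read 7.68 and 9.24 on the Mim1 arrays, 6.53 and 7.08 on the Mim2 arrays, and 8.25, 8.70, 8.02 and 8.56 on the wild-type arrays. The Mim2 arrays and Mim1-5 were below all wild-type arrays and Mim1-6 above, with a difference of -0.75 ± 0.51 (SE). Aurka, the Aurora kinase of the spindle poles, read 8.63 and 10.80 on the Mim1 arrays, 8.59 and 8.12 on the Mim2 arrays, and 9.64, 9.44, 9.40 and 10.48 on the wild-type arrays, with the same order of knockout arrays against the wild type and a difference of -0.70 ± 0.56 (SE). Aurkb, the kinase of the chromosomal passenger complex, differed by -0.40 and the checkpoint kinase Bub1 by -0.22. Birc5, the survivin subunit of the passenger complex, read 9.06 and 9.04 on the Mim1 arrays, 9.57 and 9.22 on the Mim2 arrays, and 10.01, 9.13, 9.79 and 9.95 on the wild-type arrays. Its 2 Mim1 values were below all wild-type arrays and Mim2 values among them, and the difference was -0.50 ± 0.32 (SE).

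Foxm1, the transcription factor of the late wave, read 7.99 and 9.09 on the Mim1 arrays, 6.73 and 7.24 on the Mim2 arrays, and 8.59, 8.52, 8.62 and 9.13 on the wild-type arrays. Mim1-5, Mim2-2 and Mim2-3 lay under all wild-type arrays, and the difference was -0.95 ± 0.45 (SE) (limma, adjusted p = 0.381). Top2a, which untangles sister chromosomes, read 9.08 and 10.80 on the Mim1 arrays, 8.86 and 8.48 on the Mim2 arrays, and 10.13, 10.09, 10.17 and 10.87 on the wild-type arrays. It had the same 3 arrays under all wild-type arrays and a difference of -1.01 ± 0.48 (SE). Mki67, the Ki-67 antigen used to mark dividing cells, read 11.69 and 12.72 on the Mim1 arrays, 12.20 and 12.03 on the Mim2 arrays, and 12.59, 12.69, 12.63 and 13.28 on the wild-type arrays. Again these 3 arrays were below all wild-type arrays, and the difference was -0.64 ± 0.33 (SE). Cenpa, the centromere histone, was the mitosis gene with a higher knockout mean, by 0.22. It read 8.63 and 9.01 on the Mim1 arrays, 10.46 on Mim2-3 with a mean of 10.23 over the Mim2 arrays, and 8.97, 9.32, 9.23 and 9.70 on the wild-type arrays, so that the Mim2 arrays lay above all others and the Mim1-5 array below the wild type.

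The same stretch upstream of 3 mitosis genes is printed to set Ccnb2 and Top2a, low on the Mim2 arrays, beside Cenpa, high on them (RefSeq, GRCm38.p6, capitals as above).
Ccnb2, chr9:70421555-70421804 (-): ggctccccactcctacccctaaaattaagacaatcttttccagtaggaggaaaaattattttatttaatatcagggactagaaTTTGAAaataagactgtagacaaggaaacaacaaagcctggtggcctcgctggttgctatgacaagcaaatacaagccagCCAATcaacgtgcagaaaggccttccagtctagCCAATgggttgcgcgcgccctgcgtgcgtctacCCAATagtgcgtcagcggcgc
Top2a, chr11:99024190-99024439 (-): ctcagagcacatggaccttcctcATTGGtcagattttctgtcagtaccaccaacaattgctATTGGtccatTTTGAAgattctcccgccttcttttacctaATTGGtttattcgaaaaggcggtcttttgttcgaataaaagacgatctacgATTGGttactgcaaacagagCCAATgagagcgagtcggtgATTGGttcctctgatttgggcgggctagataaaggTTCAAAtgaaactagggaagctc
Cenpa, chr5:30666636-30666885 (+): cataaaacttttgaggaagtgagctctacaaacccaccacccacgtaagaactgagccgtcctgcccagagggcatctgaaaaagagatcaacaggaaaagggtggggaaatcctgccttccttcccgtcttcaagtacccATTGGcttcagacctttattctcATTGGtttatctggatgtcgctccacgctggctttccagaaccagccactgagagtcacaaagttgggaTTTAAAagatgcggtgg
Each of the 3 holds a CHR word, Cenpa at 17 bases before its start and Ccnb2 at 167. Ccnb2 holds CCAAT at 87, 54 and 21 bases before its start, all in the same direction.

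RefSeq promoters of this length were matched by symbol for 26 of the 33 genes, 13 in each group. The first entry listed for each symbol was used, and other starts of the gene were not searched. Foxm1, Mcm4, Aurkb, Kif20a, Tpx2, Ccna2 and Ccne2 had no match. The medians below therefore leave out Kif20a (-2.90 on Mim2 against the wild type), Tpx2 (-2.74) and Foxm1 (-1.73). CHR words were found in 9 of 13 mitosis and 5 of 13 replication promoters, beside 25.2% of all 32851 promoters, and CCAAT in 11 and 8 of 13, beside 33.8%. Both together stood in 8 mitosis and 3 replication promoters, beside 8.78%. E2F words stood in 4 replication promoters (Cdc6, Mcm5, Mcm6 and Mcm7) and 1 mitosis promoter (Cdk1), beside 1.86%. The shares over all promoters count every entry, not 1 per gene. The stretch used for E2f1 held none of the words and may not be its main promoter, so its place among the genes without them is uncertain. The median Mim2 minus wild type difference was -0.79 for members with a CHR word and -0.78 for those without, -0.89 with CCAAT and -0.62 without, and -0.52 with an E2F word and -0.90 without. A match is a stretch of letters, not a measured binding site.

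With each knockout pair set against the wild type, 6 genes were called on the Mim2 arrays and 0 on the Mim1 arrays. In a limma fit of 3 groups, the median Mim1 minus wild type difference was -0.17 for the 33 genes, 26 of them lower, and 0 passed, beside 0.0% of all features (2301 at an unadjusted p under 0.05, of which 1 was a member, Ccne2). The median Mim2 minus wild type difference was -0.89, beside 0.08 over all features, with 30 of 33 genes lower. The 6 genes that passed on Mim2 were all lower, beside 11.2% of all features (7.26% lower and 3.96% higher). These were the mitosis genes Kif20a, Tpx2, Ccnb2 and Foxm1 and the replication genes Mcm2 and Pcna. Both sets of differences share the 4 wild-type arrays.

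**Figure D2:**
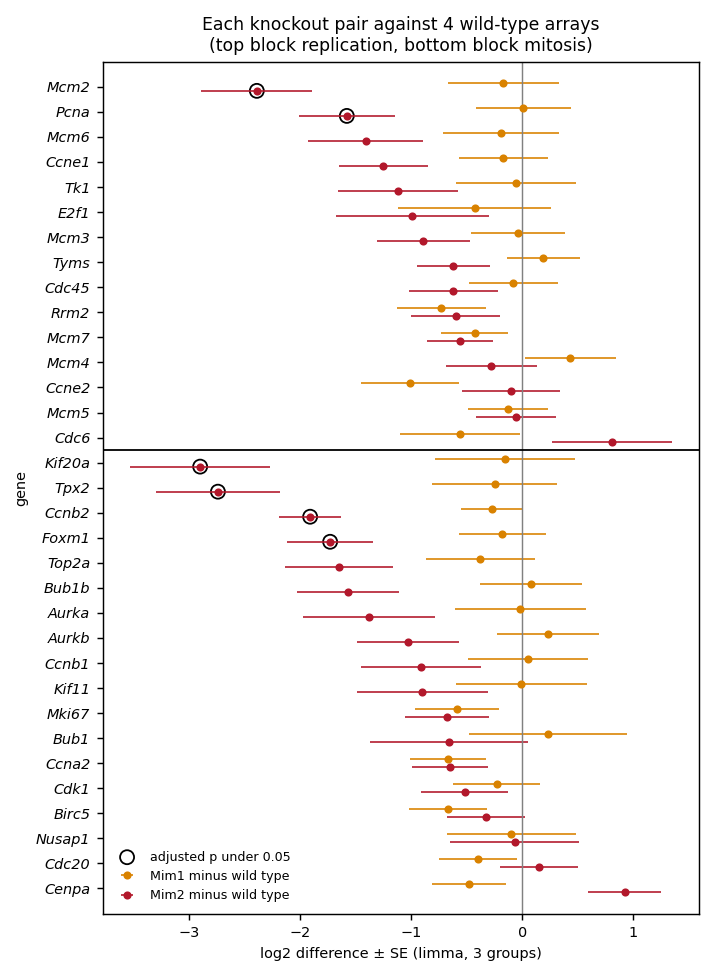
Log2 difference of the Mim1 pair (orange) and the Mim2 pair (red) against the 4 wild-type arrays, with the standard error of the 3-group limma fit, for 15 replication genes (top) and 18 mitosis genes (bottom); circled points have an adjusted p under 0.05. The 6 circled points are all Mim2 differences under 0, while Mim1 differences lie between -1.01 and 0.43.

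On the Mim2 arrays Kif20a was 7.49-fold lower than in the wild type, at -2.90 ± 0.63 (SE, adjusted p = 0.0238) on the log2 scale, against -0.16 on Mim1. Tpx2 (MM9 chromosome 2, 152673747 to 152720790) was 6.66-fold lower, at -2.74 ± 0.56 (SE, adjusted p = 0.0198), against -0.25 on Mim1. Mcm2 (MM9 chromosome 6, 88833467 to 88848683) was 5.25-fold lower, at -2.39 ± 0.50 (SE, adjusted p = 0.0215), against -0.17. These 3 had the largest falls of the members that stayed above background. Foxm1 (MM9 chromosome 6, 128313011 to 128325904) was 3.31-fold lower, at -1.73 ± 0.39 (SE, adjusted p = 0.0276), and Pcna (MM9 chromosome 2, 132075212 to 132078900) 2.99-fold lower, at -1.58 ± 0.43 (SE, adjusted p = 0.0482). Ccnb2 (MM9 chromosome 9, 70255498 to 70269277), not above the random probes on Mim2, was at least 2.69-fold lower (limma, adjusted p = 0.00655).

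Several members stood just outside the threshold on Mim2. Bub1b was at -1.57 ± 0.46 (SE, adjusted p = 0.0622), Top2a at -1.65 ± 0.49 (SE, adjusted p = 0.0647) and Ccne1 at -1.25 ± 0.40 (SE, adjusted p = 0.0818), all lower on both Mim2 arrays than on any wild-type array. Farther out, Mcm6 was at -1.41 ± 0.52 (SE, adjusted p = 0.118), Aurka at -1.38 ± 0.59 (SE, adjusted p = 0.169), Aurkb at -1.03 ± 0.46 (SE, adjusted p = 0.182) and Tk1 at -1.12 ± 0.54 (SE, adjusted p = 0.218). Cenpa was higher, at 0.92 ± 0.33 (SE, adjusted p = 0.11), and did not pass, though it did over the features of the series table. Its dimmer features were higher by only 0.25 and 0.46 and did not pass (limma, adjusted p of 0.707 and 0.336). In all, 20 of 33 genes lay under all wild-type arrays on both Mim2 arrays, beside 17.8% of all features, and 1, Cenpa, lay above them, beside 19.1%.

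The calls rest on few arrays. Without Mim2-3 only Ccnb2 passed, and without Mim2-2 there were 3 members, Ccnb2, Mcm3 and Tpx2. Leaving out WT-1 left Ccnb2 and Tpx2, leaving out WT-2 left Ccnb2, Kif20a and Tpx2, and leaving out WT-4 left Ccnb2, Mcm2 and Tpx2. Without WT-3 Ccnb2, Kif20a, Mcm2 and Tpx2 passed, and without Mim1-5 or without Mim1-6 9 members passed, the 6 above with Bub1b, Mcm6 and Top2a. With 1 Mim2 array left out, the remaining one is assumed to vary like the other groups. Array weights left Ccnb2, Mcm2 and Tpx2, and quantile normalization lost Pcna.

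Some genes also depend on the feature read. The 33 genes have 52 features, 15 genes having several. Of the 52 features 10 passed as lower and 0 as higher on Mim2, beside 7.26% and 3.96% of all features. A second Foxm1 feature passed as well, at -1.91 (limma, adjusted p = 0.0267). A second Pcna feature read -0.36 (limma, adjusted p = 0.621), and of 3 further Tpx2 features 1 passed, at -2.81, and the others read -0.74 and -0.25. Dimmer features of Ccnb1 and Aurka passed where those used above did not, at -1.66 (limma, adjusted p = 0.0271) and -2.60 (limma, adjusted p = 0.0290). For 2 genes the features went opposite ways in the knockout against the wild type. The dimmer Mcm6 feature was higher by 0.19, and by 0.59 on Mim2, where the one used read -0.80 and -1.41. The dimmer Ccne2 feature was higher by 0.44, and by 0.26 on Mim1, where the one used read -0.56 and -1.01.

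The knockout pairs were also compared with each other. Of the 33 genes 24 were lower on Mim2 than on Mim1, with a median of -0.86, beside 45.9% of all features and a median of 0.08. By the features used 1 gene passed, Ccnb2 at -1.64 ± 0.32 (SE, limma adjusted p = 0.0347) as measured, beside 3.21% of all features (2.84% lower and 0.367% higher). Its Mim2 values are under the random probes, so the size is only a bound, at least 2.23-fold lower than on Mim1. The call held without WT-4 but was lost on leaving out any of the other 7 arrays, with array weights and with the trend and robust variance model. Mcm2 differed by -2.22 ± 0.58 (SE, limma adjusted p = 0.077) and Cenpa by 1.41 ± 0.38 (SE, limma adjusted p = 0.086). For the other genes called on Mim2 the difference between the knockout pairs did not pass here. The Ccnb1 feature used read -0.96 and did not pass. A dimmer Ccnb1 feature, above the random probes on all 8 arrays, passed at -2.02 (limma, adjusted p = 0.0457). With the trend and robust variance model Kif20a, Mcm2, Pcna and Tpx2 passed as lower and Cenpa as higher, and over the features of the series table, which lacks the Ccnb2 feature, Foxm1 passed as lower beside these 5.

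Markers of other cell types were measured on the same arrays. Among 15 mammary epithelium markers 10 passed as lower and 1 as higher on Mim2 against the wild type, and all 7 adipocyte markers passed as higher. Of all features 7.26% passed there as lower and 3.96% as higher. Of 9 B cell markers 5 passed as higher, of 10 T cell markers 3, of 8 pancreas markers 3 and of 8 macrophage markers 3, and of 8 germinal centre markers 1, S1pr2, passed as lower. The mean of 10 erythroid markers was 8.88 and 9.09 on Mim2, 7.98 and 7.93 on Mim1 and 8.64 to 8.97 on the wild-type arrays. The pancreas mean was 7.38 and 6.48 on Mim1, 7.01 and 6.77 on Mim2 and 5.64 to 5.84 on the wild-type arrays, and the macrophage mean 10.23 and 9.71 on Mim1, 10.27 and 10.70 on Mim2 and 9.11 to 9.82 on the wild-type arrays. Mim1-5 and Mim1-6, whose means over the 33 genes were 8.30 and 9.40, had mammary means of 10.54 and 10.55, erythroid means of 7.98 and 7.93, B cell means of 9.68 and 9.35, and T cell means of 8.83 and 8.86. The pancreas and macrophage means were higher on Mim1-5 than on Mim1-6. The germinal centre mean was 7.10 and 6.93 on Mim1, 7.06 and 7.09 on Mim2 and 7.17 to 7.59 on the wild-type arrays. By this mean each knockout array lay under all wild-type arrays. The 8 markers were mixed, with 5 lower and 3 higher in the knockout, from -1.5 to 0.67, beside 47.8% of all features lower. The part of these other cell types in the cell cycle values was not tested.

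**Figure D3:**
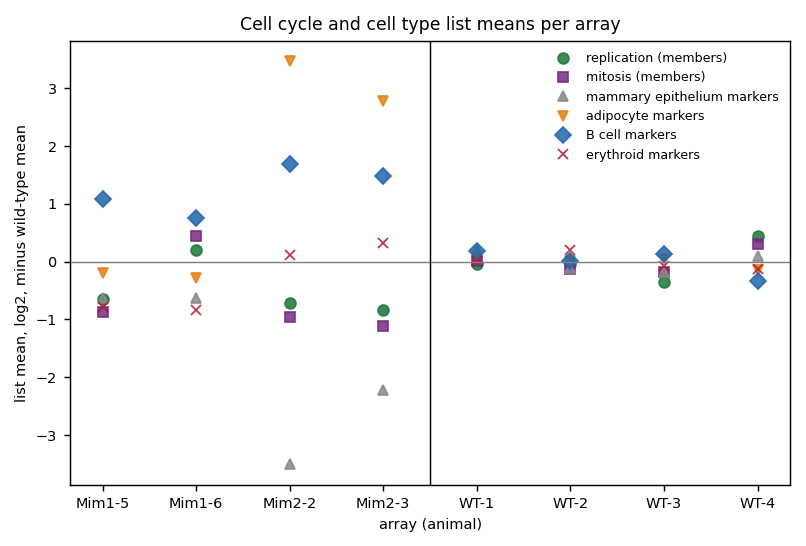
Mean log2 intensity of 6 gene lists on each array, minus the mean of the 4 wild-type arrays; each symbol is 1 list on 1 array. Mammary markers lie low and adipocyte markers high on Mim2-2 and Mim2-3. Replication and mitosis genes lie low on these arrays and on Mim1-5. On Mim1-5 and Mim1-6 alike the mammary (10.54 and 10.55), erythroid (7.98 and 7.93) and adipocyte (7.32 and 7.24) means lie under all wild-type arrays. The B cell means (9.68 and 9.35) lie above them.

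Replication and mitosis genes stood high and low on the same arrays. The 15 replication genes averaged 8.40 and 9.25 on the Mim1 arrays, 8.34 and 8.21 on the Mim2 arrays, and 9.01, 9.01, 8.69 and 9.49 on the wild-type arrays. The 18 mitosis genes averaged 8.22 and 9.53 on Mim1, 8.13 and 7.98 on Mim2, and 9.10, 8.96, 8.91 and 9.39 on the wild-type arrays. By both means Mim1-5 and the Mim2 arrays lay under all wild-type arrays, and Mim1-6 stood above the wild-type mean. The genotypes differed by -0.50 for replication and -0.62 for mitosis.

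**Figure D4:**
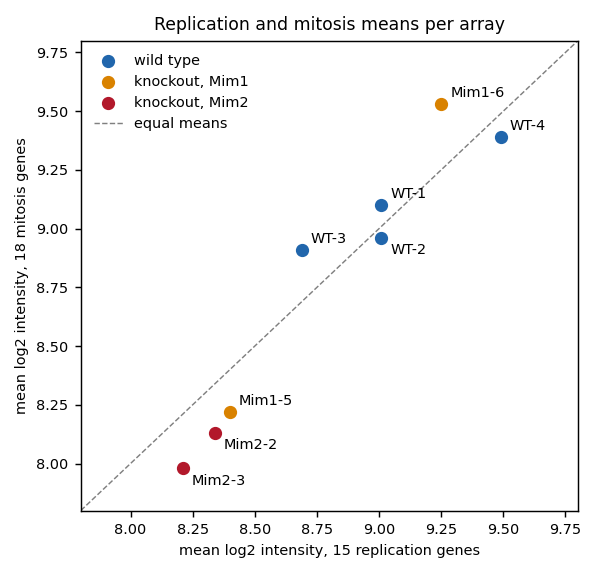
Mean log2 intensity of 15 replication genes (x axis) against that of 18 mitosis genes (y axis) on each of 8 arrays, with the line of equal means. Mim1-5, Mim2-2 and Mim2-3 lie together at the lower left, with replication means of 8.21 to 8.40, and Mim1-6 lies with the wild-type arrays at the upper right.

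Replication minus mitosis, which takes out what the groups share on an array, was 0.18 and -0.28 on Mim1, 0.20 and 0.23 on Mim2, and -0.09, 0.05, -0.22 and 0.10 on the wild-type arrays. It averaged 0.08 ± 0.24 (SD, n = 4) over the knockout and -0.04 ± 0.14 (SD, n = 4) over the wild-type arrays, a difference of 0.12 that is smaller than the knockout spread. The median knockout minus wild type difference was -0.56 for replication, with 13 of 15 genes lower, and -0.57 for mitosis, with 17 of 18 lower. On Mim2 the medians were -0.62 and -0.91. There 2 of 15 and 4 of 18 genes were called, all lower, beside 11.2% of all features (7.26% lower).

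Other genes of the cycle were read from lists of known genes. Of 44 other replication genes 19 had a higher and 25 a lower knockout mean, with a median of -0.11, and of 48 other mitosis genes 13 were higher and 35 lower, with a median of -0.27. Of 33 G1 cyclins, CDKs, E2F and RB genes and CDK inhibitors 7 were higher and 26 lower, with a median of -0.30. None passed in the knockout against the wild type. The genes with the smallest p among the other replication genes were Cdt1 (1.30), Cdc7 (1.20) and Gins3 (0.80), which act at origins, on the higher side, and the flap nuclease Fen1 (-1.08), the polymerase subunit Pold2 (-1.32) and Mcm10 (-0.93) on the lower, as log2 differences. Among the other mitosis genes they were Hmmr (0.80), Pttg1 (0.66) and the condensin subunit Smc2 (0.58) on the higher side, and the kinesins Kif15 (-1.49) and Kif22 (-1.37) and the kinetochore protein Cenpf (-1.49) on the lower. Among the G1 genes they were Ccnd2 (0.88), Cdk6 (1.03) and Myc (0.41), and on the lower side Cdkn1a, the p21 inhibitor (-1.91), Ccnd1 (-2.13) and E2f6 (-1.32).

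On the Mim2 arrays genes of these lists passed in both directions. Of 44 other replication genes 3 passed as higher and 6 as lower against the wild type. Of 48 other mitosis genes 1 passed as higher and 5 as lower, and of 33 G1 genes 1 and 5. Beside these, 3.96% of all features passed as higher and 7.26% as lower. Cdt1, which licenses origins, was higher by 1.64 ± 0.36 (SE), as were the origin kinase Cdc7 by 1.57 ± 0.34 and Wdhd1 by 1.34 ± 0.31. The polymerase subunits Pola2, Pold2 and Pold3, Fen1, Rrm1 and the chromatin assembly subunit Chaf1b were lower, with differences of -1.55 (Fen1) to -2.62 (Chaf1b). Rrm1, the large subunit of the reductase, was lower, at -2.60 ± 0.46 (SE, limma adjusted p = 0.0127), beside -0.60 for its partner Rrm2. Among mitosis genes Hmmr was higher by 1.41 ± 0.33 (SE), and Prc1, which bundles the central spindle, was lower, at -2.36 ± 0.58 (SE). Ncaph, Kif22 and Troap also passed as lower but were not above the random probes on Mim2, and Kif15 was above them on 1 of 2 arrays. In the G1 list the D-type cyclins went opposite ways: Ccnd2 was higher by 1.28 ± 0.32 (SE) and Ccnd1 lower, at -3.56 ± 0.45 (SE). Cdk4, E2f6, Cdkn1a and Wee1 were lower, at -1.56, -2.36, -3.26 and -2.33. All these passed in limma, with adjusted p of 0.00355 to 0.0418.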

How the data were processed

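The authors deposited 1 table per array with a linear intensity for each of 44170 features, made with RMA per the submitters' processing notes, and a standard error score that entered no test. Per the file headers, positions are in build MM9 and 44155 features rest on 3 probes. A deposited series table holds 21856 of the features. Intensities deposited by the authors were transformed here to log2, with no second normalization, and random probes served as background. Symbols came from the files and, for 21583 of 24203 gene numbers, from RefSeq (GRCm38.p6). Every feature was tested with limma 3.58.1 (lmFit, eBayes; R 4.3.3), with Benjamini-Hochberg adjustment and a threshold of 0.05. One fit took genotype with labelled sex, another Mim1, Mim2 and wild type as 3 groups. Only the genotype fit was tested on simulated data, with the same change on all knockout arrays, so the 3-group fit was not checked that way. The number of arrays limits the precision. A value at background gives a fold of "at least", taken against the random probes of those arrays. Members and lists, other tissues' markers included, were chosen with earlier results of these data known. Every member found is named; values on each array are given for the 6 replication and 10 mitosis genes with the largest differences, the 2 smallest of each group, and Pcna and Mki67. Cenpa's were added after seeing them. Of other lists, 3 genes per direction with the smallest p are named, and those called on Mim2. Alternatives covered the variance model, array weights, normalization, filters, floor, feature choice, series table and each array.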

Additional observations from a re-analysis of the deposited data

Results flagged for a closer look

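In groups of 4 arrays, a value was marked when its gap to the nearest array exceeded Dixon's critical share of the group's range. This held for 7 of 70 groups, where chance gives about 1 in 20 for independent groups. The groups here share the same arrays and hold genes that move together, so the count cannot be judged against that rate. Mcm3 was far below the other knockout arrays on Mim2-3, at 7.92. WT-4 stood far above the other wild-type arrays for Ccne1 at 8.55, Mki67 at 13.28, Top2a at 10.87 and Foxm1 at 9.13. Mim1-6 stood far above the other knockout arrays for Ccnb1 at 9.94 and for the mean of the 18 mitosis genes at 9.53. The knockout pairs differed from each other for Ccnb2, by -1.64 on the log2 scale, Mim2 minus Mim1 (limma, adjusted p = 0.0347), with both Mim2 values under the random probes, so that the size is only a bound.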

How the results depend on the processing

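No member passed in the knockout against the wild type under any setting run, while the trend and robust variance model called 16 features there, 7 higher and 9 lower, and 8 for Mim1 against the wild type. For Mim2 against the wild type 4957 features were called, 2904 with array weights, and 2579 to 3974 with 1 array left out. The members called there, 6 as reported, were 3 with array weights and 1 to 9 with 1 array left out. For Mim2 against Mim1 1417 features were called, 3018 with the trend and robust model, 821 with array weights, 2179 with values floored at the random probes, 3571 of the 21856 in the series table, and 0 to 1055 with 1 array left out. Of the members 1 was called there, 5 with the trend and robust model, Ccnb2 not among them, 0 with array weights, 6 of 29 in the series table, and 0 to 1 with 1 array left out. The knockout minus wild type difference in replication minus mitosis, 0.12, was 0.39 with the dimmest feature of each gene. The replication and mitosis medians, -0.56 and -0.57, stayed under 0 throughout but were -0.17 and -0.20 without both Mim2 arrays. Without both Mim2 arrays 13 of 33 members moved by more than the replicate spread and 8 changed sign. For none of these was the cause tested.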
